A study of Homo sapiens with 134 samples.

Results

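GDF15, KITLG, THBS1, SERPINB5 and IGFBP3 are 5 genes of proteins that cells release or, for SERPINB5, also keep inside, and that have been linked to the tumour suppressor p53. All probes of these symbols were taken, which gave 5 of the 19381 genes that the annotation names and 6 of the 48701 probes on the array: 1 each for GDF15, THBS1, SERPINB5 and IGFBP3, and 2 for KITLG. They were measured in HBEC3KT, a human bronchial epithelial cell line immortalised with hTERT and CDK4, on Illumina HumanWG-6 V2 BeadChips. Cells received 56Fe ions or 28Si ions at 0.5 or 1 Gy, or photons at 1 or 3 Gy, and were collected 1, 4, 12 and 24 h later together with a mock-irradiated culture of each time. The labels call the photon arm x-ray, while the study's methods describe γ-rays from a cesium source, and it is called γ-ray here. A reference culture was collected before radiation at 0 h. Each radiation type was run 3 times, in different beam campaigns out of 5 (08A, 08C, 09A, 09B and 09C), so that there were 9 runs, each with its own mock and reference cultures. The 134 arrays held 116 samples after repeat arrays were averaged: 71 irradiated, 36 mock and 9 reference. The Fe run of campaign 08A had no 0.5 Gy sample at 12 h. All groups are 1 immortalised line from 1 source, so the runs are repeats of the experiment and not different people.

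GDF15 is a stress-induced member of the TGF-β family, and its transcription is a textbook target of p53. KITLG, or stem cell factor, is the ligand of the receptor tyrosine kinase KIT, and exists as a membrane-bound and a cleaved form. THBS1, thrombospondin 1, is a matrix glycoprotein that inhibits blood vessel growth and can activate latent TGF-β. SERPINB5, maspin, is a serpin of epithelial cells that does not act as a classical protease inhibitor. IGFBP3 binds insulin-like growth factors in the extracellular fluid and limits their access to the receptor. After ionising radiation p53 is stabilised and transcribes genes of cell cycle arrest, repair and death, and part of its known target set encodes secreted proteins that act on neighbouring cells.

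These genes were chosen on the comparison of irradiated with mock cells of these same arrays: KITLG for its 4 h value, THBS1 because the study named it and GDF15 because it stands in a gene list of the study, with SERPINB5 and IGFBP3 set beside them. The log2 ratios to mock are therefore given as a description with no test. Tests are given for the time course of cells that were not irradiated, for the higher against the lower dose, and between radiation types.

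To show what lies in front of the 3 genes that lead this set, the 130 bases just before the RefSeq transcription start are printed 5′ to 3′ (GRCh38.p14). They are GDF15 at chr19:18386028-18386157 on the plus strand, KITLG at chr12:88580472-88580601 on the minus strand and THBS1 at chr15:39580949-39581078 on the plus strand. Capitals mark TATAAA and GGGCGG on either strand, the letters of a TATA box and of a GC box:
GDF15: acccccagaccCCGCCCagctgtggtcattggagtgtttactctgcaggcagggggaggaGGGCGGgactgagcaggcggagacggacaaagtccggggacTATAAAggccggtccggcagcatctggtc
KITLG: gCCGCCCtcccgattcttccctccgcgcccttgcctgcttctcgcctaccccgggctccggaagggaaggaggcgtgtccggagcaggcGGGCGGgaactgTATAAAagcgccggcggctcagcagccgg
THBS1: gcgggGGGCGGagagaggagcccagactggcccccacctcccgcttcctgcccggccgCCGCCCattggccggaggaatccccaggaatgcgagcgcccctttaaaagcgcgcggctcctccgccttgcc

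In both GDF15 and KITLG the letters TATAAA stood at bases -29 to -24 from the start, and they were absent from the windows of THBS1, SERPINB5 and IGFBP3. Over the whole window of 250 bases before to 50 after the start, 11.5% of 35116 RefSeq promoters held TATAAA and 45% held GGGCGG, which was present in the windows of all 5 genes. The AP-1 letters TGANTCA occurred once among the 5 windows, in SERPINB5 at -146 to -140, against 7.71% of all promoters. The p53 half-site consensus matched none of the 5 windows and 6.63% of all promoters. These are matches of letters within one short window, with nothing measured on the DNA.

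The raw median signal of an array, a measure of its brightness, lay between 45.77 and 115.8 units, with overlapping ranges in irradiated, mock and reference samples. The basal airway markers had raw medians from 74.1, for 1 of 2 ITGB4 probes, to 9275 for KRT5, with KRT14 at 6810. The fibroblast markers had raw medians of 49.2 to 75.7 and the endothelial markers of 54.1 to 72.7, near the median of an array. The leukocyte markers lay between 56.8 and 229, the last for CD14. No marker probe of fibroblasts, endothelium or leukocytes passed a test below. Of the 8 basal probes, 1 each of CDH3 and ITGB4 did, between 12 and 24 h in mock cells, where 13% of all probes passed.

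SERPINB5 had the brightest of the 6 probes relative to its array, with a median raw signal of 7976 (range 1822 to 20335), above 99.3% of all probes on the median array. The THBS1 probe had a median of 2122 (341.6 to 9215), GDF15 292.8 (101 to 4343), IGFBP3 219.7 (51.4 to 1729) and the brighter KITLG probe 120.1 (51.7 to 751.1). The other KITLG probe, ILMN_1746232, had a median of 64.5 and stood at the 49.1 percentile of its array. It gave no more than background brightness and barely passed the filter on dim probes. KITLG below means the brighter probe, ILMN_1808508, unless the dim one is named. Brightness depends on the probe, so these values do not rank the transcripts.

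Which of these genes moved in cells that were never irradiated was asked first, since mock cells are the denominator of every ratio. Between 0 and 24 h, 3 of the 6 probes changed at least once at an adjusted p under 0.05 (limma with run as a block, n = 9 runs): GDF15, THBS1 and IGFBP3. GDF15 rose late, whereas THBS1 and IGFBP3 rose to a peak at 4 h and then fell. KITLG and SERPINB5 had no step that passed. RNA was taken from whole cultures, where fewer cells making a transcript and less of it per cell cannot be told apart. Among all 24350 probes tested, 0.546% passed from 0 to 1 h, 6.51% from 1 to 4 h, 5.86% from 4 to 12 h and 13% from 12 to 24 h. A passing step after 1 h is thus not unusual on these arrays. These shares are per step. The share of all probes that passed at least 1 step was not worked out, so 3 of 6 has no matching share beside it.

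**Figure D1:**
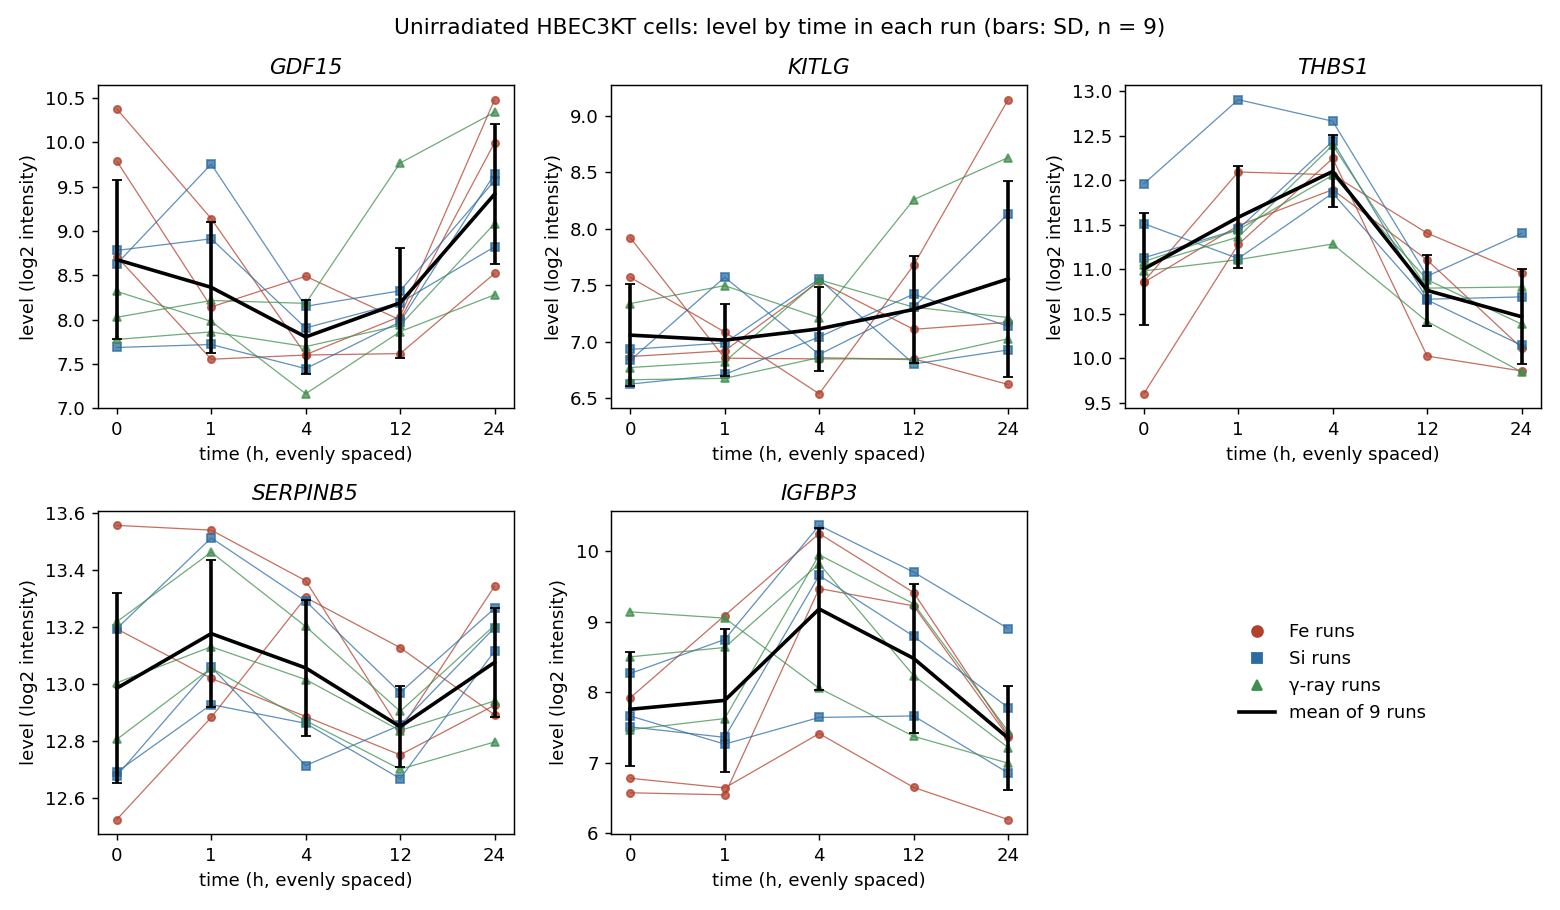
Level of each gene (log2 intensity after quantile normalisation, y axis) against time in hours (x axis, evenly spaced) in cells that were not irradiated; thin lines are the 9 runs coloured by radiation arm, and the black line is their mean with SD. THBS1 and IGFBP3 peak at 4 h at means of 12.10 and 9.18, and GDF15 is lowest at 4 h (7.81) and highest at 24 h (9.42).

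GDF15 stood at a log2 level of 8.68 ± 0.90 (SD, n = 9) in the reference, 8.37 ± 0.74 at 1 h, 7.81 ± 0.41 at 4 h, 8.19 ± 0.62 at 12 h and 9.42 ± 0.79 at 24 h. At 4 h the 9 mock cultures ranged from 7.17 to 8.49 (median 7.70), and at 24 h from 8.28 to 10.48 (median 9.57). The lowest culture at 24 h thus lay within the 4 h range, and the other 8 lay above it. From 12 to 24 h GDF15 rose in 9 of 9 runs, by 1.22 on the log2 scale (SE 0.26, SD over runs 0.69), a 2.34-fold rise with limma adjusted p = 0.00256. In the 4 runs with both cultures on 1 chip the mean rise was 1.37, and in the 4 with the cultures on different chips it was 0.89. The preceding decline from 1 to 4 h, of -0.56, was seen in 7 of 9 runs and missed the threshold (adjusted p = 0.256). The γ-ray run of campaign 09C stood apart at 12 h, with 9.77 against 8.33 for the next highest run.

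THBS1 stood at 11.00 ± 0.63 in the reference, 11.58 ± 0.57 at 1 h, 12.10 ± 0.40 at 4 h, 10.76 ± 0.40 at 12 h and 10.47 ± 0.53 at 24 h. The rise from 1 to 4 h was 0.51 (SE 0.16), with 7 of 9 runs up and adjusted p = 0.0476. That call was lost when any 1 of 6 runs was left out (Fe of 08A or 09C, Si of 09B or 09C, γ-ray of 08C or 09A), with adjusted p-values up to 0.175, and with the runs of each campaign averaged it was 0.0748. The fall from 4 to 12 h was the clearest step in the set: THBS1 fell in 9 of 9 runs, by 1.34 on average (SD 0.53, 2.52-fold, adjusted p = 4.84e-06). The fall was -1.39 on average within a chip and -1.42 between chips. The 4 h cultures ranged from 11.28 to 12.66 and the 12 h cultures from 10.03 to 11.41, so that the ranges overlapped only between the γ-ray run of 09C at 4 h and the Fe run of 08C at 12 h. The first step, from 0 to 1 h, was 0.58, up in 8 of 9 runs, and missed the threshold (adjusted p = 0.0917).

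IGFBP3 had the widest spread between runs of the 5 genes at 1, 4 and 12 h. Its log2 level was 7.76 ± 0.81 in the reference, 7.88 ± 1.01 at 1 h, 9.18 ± 1.15 at 4 h, 8.48 ± 1.06 at 12 h and 7.35 ± 0.74 at 24 h (n = 9). From 1 to 4 h it rose by 1.30 (SE 0.31, 2.46-fold, adjusted p = 0.00698) in 8 of 9 runs. The exception was the γ-ray run of 09C, where it went from 9.05 to 8.06, while the Fe run of the same campaign went from 6.54 to 9.47. From 12 to 24 h it fell in 9 of 9 runs by 1.13 (SD 0.61, adjusted p = 0.0134). The rise averaged 0.72 in the 4 runs with both cultures on 1 chip, 1 of which fell, and 2.01 in the 4 runs with the cultures on different chips, while the fall was -1.17 and -1.25. The step from 4 to 12 h, of -0.70, was down in 8 of 9 runs and missed the threshold (adjusted p = 0.221).

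KITLG changed little on average, from 7.06 ± 0.45 in the reference to 7.11 ± 0.37 at 4 h and 7.56 ± 0.87 at 24 h, and none of its steps passed (adjusted p of the largest step, from 12 to 24 h, 0.496). At 24 h the 9 cultures ranged from 6.62 to 9.14 with a median of 7.17. The Fe run of 09C (9.14), the γ-ray run of 09C (8.63) and the Si run of 09A (8.13) stood above the other 6, which reached at most 7.22. The dim KITLG probe ranged from 6.03 to 6.50 over all 45 unirradiated cultures and did not follow these 3. SERPINB5 was the steadiest of the set, with mean levels between 12.85 ± 0.14 at 12 h and 13.18 ± 0.26 at 1 h. Its largest step, 0.23 from 12 to 24 h, was up in 8 of 9 runs (adjusted p = 0.0635).

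The unirradiated levels of GDF15 and the other genes moved against each other or together within runs. With each run centred on its own mean, the level of GDF15 over the 45 mock and reference samples correlated with that of IGFBP3 at r = -0.73 and with that of THBS1 at -0.64, and THBS1 with IGFBP3 at 0.55. GDF15 correlated at 0.87 with CDKN1A, the cyclin-dependent kinase inhibitor p21 and a classical p53 target, and KITLG did so at 0.65. THBS1 and IGFBP3 correlated with CDKN1A at -0.63 and -0.59. The 45 points share 9 runs and 5 times and are given as a description.

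How the 5 genes moved after radiation is described by the log2 ratio to the mock culture of the same run and time, averaged over both doses. At 4 h the ratio was above 0 in 9 of 9 runs for KITLG, 8 of 9 for GDF15 and THBS1, 7 of 9 for SERPINB5 and 6 of 9 for IGFBP3. The mean ratios there were 0.40 for KITLG, 0.38 for GDF15, 0.21 for IGFBP3, 0.12 for THBS1 and 0.10 for SERPINB5. At 1 h, KITLG was below mock in 8 of 9 runs. Among all probes tested 0% passed at 1 h, 0.0534% at 4 h (13 probes), 0.0945% at 12 h and 0.0123% at 24 h.

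**Figure D2:**
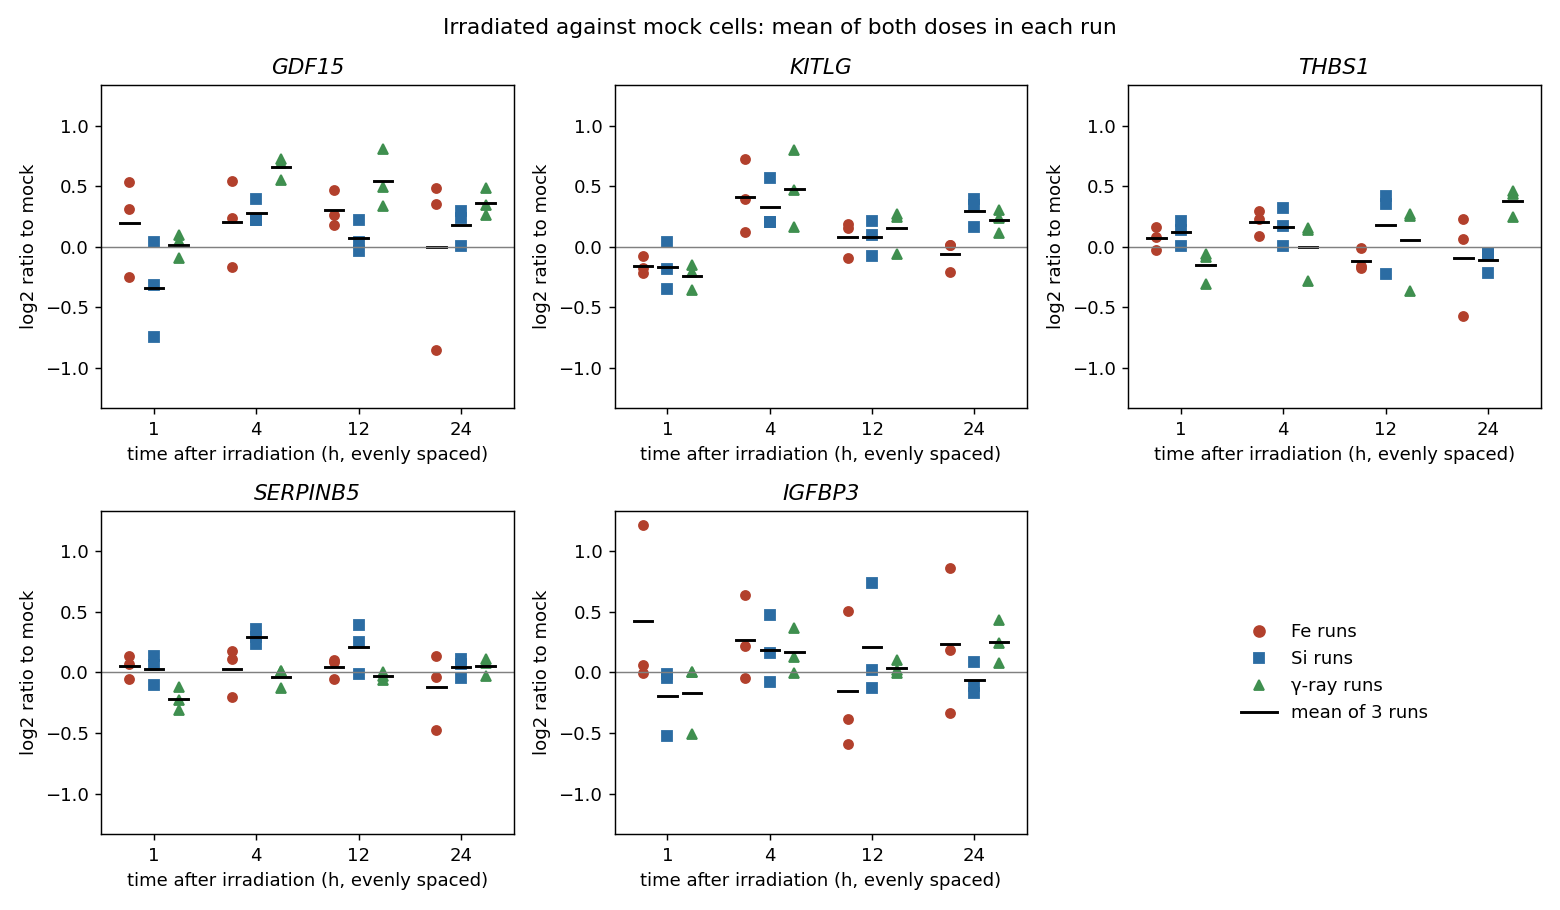
Log2 ratio of irradiated to mock cells (mean of both doses, y axis) at each time after irradiation (x axis, evenly spaced); each point is 1 run, coloured by radiation type, and black bars are means of 3 runs. All 9 KITLG points lie above 0 at 4 h (0.12 to 0.80), as do the γ-ray points of GDF15 at 4, 12 and 24 h.

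The KITLG ratio at 4 h was 0.12, 0.39 and 0.72 in the Fe runs of 08A, 08C and 09C, 0.57, 0.20 and 0.20 in the Si runs of 09A, 09B and 09C, and 0.16, 0.47 and 0.80 in the γ-ray runs of 08C, 09A and 09C. All 9 were above 0, with a mean of 0.40 ± 0.25 (SD), a 1.32-fold difference. KITLG was chosen for this 4 h value, so its rank there, with 11 of the 24350 probes higher, lends no support to a response. Single doses on the same chip as their mock averaged 0.39 (3 samples) and those on another chip 0.44 (14 samples). By type the means were 0.41 ± 0.30 for Fe, 0.32 ± 0.21 for Si and 0.48 ± 0.32 for γ-ray (n = 3 runs each). The mean was -0.19 ± 0.12 at 1 h, 0.10 ± 0.14 at 12 h and 0.15 ± 0.19 at 24 h. At 24 h, 3 of 3 Si and 3 of 3 γ-ray runs were above 0, at means of 0.30 and 0.22, and the Fe runs averaged -0.06. The dim KITLG probe gave 0.01 ± 0.17 at 4 h, with 6 of 9 runs above 0 and 10643 of the 24350 probes higher. Over 71 irradiated samples the ratios of the 2 probes correlated at r = 0.20.

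The GDF15 ratio at 4 h was -0.17, 0.54 and 0.24 in the Fe runs of 08A, 08C and 09C, 0.22, 0.22 and 0.39 in the Si runs, and 0.72, 0.55 and 0.69 in the γ-ray runs. Those of γ-ray were each above all others. Over the 9 runs the mean was 0.38 ± 0.28 at 4 h (8 of 9 above 0), 0.31 ± 0.26 at 12 h (8 of 9) and 0.18 ± 0.41 at 24 h (8 of 9), against -0.04 ± 0.37 at 1 h. In γ-ray runs alone it was 0.66 ± 0.09, 0.55 ± 0.24 and 0.37 ± 0.11 at 4, 12 and 24 h. The Fe run of 08A lay far below the rest at 24 h, at -0.85. The probes with a higher mean ratio numbered 16 of 24350 at 4 h and 27 at 12 h. The genes were chosen on this comparison, so these ranks are a description. For comparison, the CDKN1A ratio was 0.61 ± 0.07 at 4 h.

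These ratios stand beside sizeable differences between cultures that received the same handling on the labels. Mock cultures of the same campaign and time, taken from different radiation arms, differed by a median of 0.45 on the log2 scale for GDF15, 0.48 for KITLG, 0.50 for THBS1, 0.80 for IGFBP3 and 0.16 for SERPINB5 (20 pairs). Arrays that repeated a sample had a pooled SD of 0.60 for GDF15, 0.48 for THBS1, 0.30 for IGFBP3, 0.25 for KITLG and 0.15 for SERPINB5 (12 samples with 30 arrays). All the repeated samples came from the Fe arm, most of them from 1 run. No Si or γ-ray sample was repeated, so these SDs do not describe the arrays of those arms. At 4 h alone (5 pairs) the median mock difference was 0.44 for GDF15, 0.17 for KITLG, 0.61 for THBS1, 0.16 for SERPINB5 and 0.54 for IGFBP3. It was above the mean ratio to mock at 4 h for GDF15, THBS1, SERPINB5 and IGFBP3 and below it for KITLG. The measures are unlike, so this order does not show which ratios exceed the noise. The mock difference is unsigned and lies between single cultures of different runs. The mean ratio is signed and averages 9 ratios, each taken within 1 run.

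THBS1 averaged 0.01 ± 0.16 at 1 h, 0.12 ± 0.18 at 4 h, 0.04 ± 0.29 at 12 h and 0.06 ± 0.33 at 24 h. At 24 h the 3 γ-ray runs were at 0.44, 0.25 and 0.46, the 3 Si runs at -0.06, -0.06 and -0.22, and the Fe runs at 0.23, -0.57 and 0.06, so that the γ-ray runs stood above all the ion runs. IGFBP3 averaged 0.21 ± 0.25 at 4 h, with single runs between -0.08 and 0.64, and its runs at 1 h included 1.21 in the Fe run of 08A against a highest other value of 0.06. SERPINB5 averaged 0.10 ± 0.19 at 4 h. The probes with a higher mean ratio at 4 h numbered 59 for IGFBP3, 434 for THBS1 and 1021 for SERPINB5, of 24350. The SERPINB5 Si runs were at 0.29, 0.36 and 0.23 at 4 h, above 0 in 3 of 3, while Fe averaged 0.03 ± 0.20 and γ-ray -0.04 ± 0.08. At 12 h the Si mean was 0.21 ± 0.20, and by 24 h it was 0.04 ± 0.08.

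Whether the radiation types differed was tested over the 4 times with limma's F test on the 36 run ratios (8 contrasts). None of the 6 member probes passed, and 0% of all probes did; 1509 of 24350 had an unadjusted p under 0.05, and the smallest adjusted p was 0.396. SERPINB5 had the lowest member value (unadjusted p = 0.018, adjusted p = 0.785), followed by THBS1 (0.0427 and 0.795) and GDF15 (0.056 and 0.814). IGFBP3 and KITLG had adjusted p = 0.933 and 0.94. The study named THBS1 for γ-ray and listed GDF15 among the genes that told the types apart, both from these same arrays, so their unadjusted values carry that choice. The THBS1 difference at 24 h was -0.48 for Fe against γ-ray and -0.49 for Si against γ-ray, given as a description because the gene was chosen for this pattern. The GDF15 difference at 4 h was -0.45 for Fe against γ-ray and -0.38 for Si against γ-ray. It is likewise a description with no interval, because GDF15 was taken from the study's list of genes that told the types apart. For KITLG at 4 h, Fe minus γ-ray was -0.06 (-0.36 to 0.23) and Si minus γ-ray was -0.15 (-0.45 to 0.14), intervals that leave room for differences about the size of the KITLG ratio itself.

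The doses behind these means were not equal, since γ-ray means hold 3 Gy. At 1 Gy, the dose given with all types, none of the 6 probes passed and 0% of all probes did (2232 with an unadjusted p under 0.05, smallest adjusted p 0.0687). The GDF15 ratio at 4 h and 1 Gy was 0.37 ± 0.34 after Fe, 0.40 ± 0.16 after Si and 0.32 ± 0.23 after γ-ray, so that Fe minus γ-ray was 0.05 (95% interval -0.42 to 0.53) and Si minus γ-ray 0.08 (-0.40 to 0.56). The separation of γ-ray seen for GDF15 in the mean of both doses did not show in these means at 1 Gy. The intervals take no account of how the gene was chosen. They reach -0.42 and -0.40, so a separation at 1 Gy of about the size seen with both doses is not excluded. For THBS1 at 24 h and 1 Gy, Fe minus γ-ray was -0.68 and Si minus γ-ray -0.58, again as a description.

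The higher dose was then set against the lower dose of the same run and time. No member probe passed the F test over the 4 times for any type, nor the test at any single time. Over all probes 0% passed for Fe (2004 with an unadjusted p under 0.05, smallest adjusted p 0.0507), 0.678% for Si and 0.821% for γ-ray. GDF15 with γ-ray came nearest, with an adjusted p of 0.0724.

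**Figure D3:**
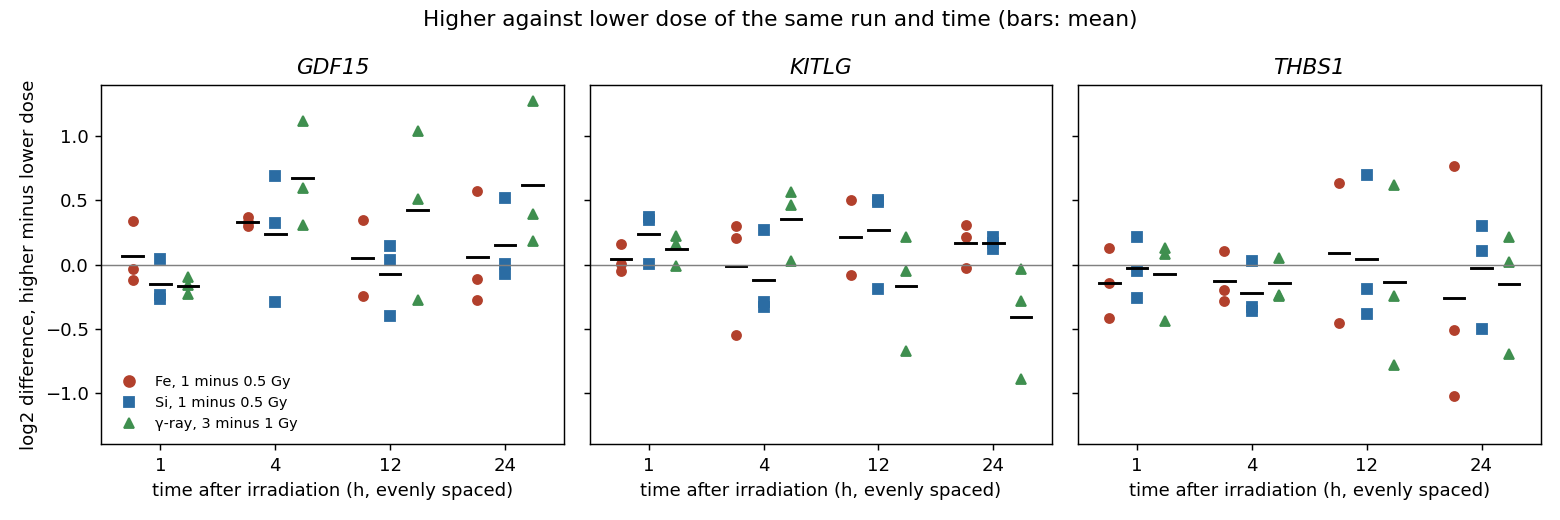
Log2 difference between the higher and the lower dose of the same run and time (y axis) against time after irradiation (x axis, evenly spaced) for GDF15, KITLG and THBS1; each point is 1 run and black bars are means. The γ-ray points of GDF15 lie above 0 in 3 of 3 runs at 4 h and at 24 h.

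After 3 Gy of γ-rays the GDF15 ratio to mock at 4 h was 0.88, 0.85 and 1.25 in the runs of 08C, 09A and 09C, against 0.57, 0.25 and 0.13 after 1 Gy. The 2 doses did not overlap. At 24 h it was 0.68, 0.36 and 0.98 after 3 Gy against 0.29, 0.17 and -0.29 after 1 Gy. The difference averaged 0.68 ± 0.41 at 4 h, 0.42 ± 0.66 at 12 h and 0.62 ± 0.58 at 24 h, and was -0.16 ± 0.07 at 1 h. At 12 h the run of 09A went the other way, with 0.95 after 1 Gy and 0.67 after 3 Gy. Without that run the GDF15 test passed (adjusted p = 0.0293), and without the run of 09C its adjusted p was 1. Over 4 to 24 h the difference averaged 0.31 in the 4 pairs of doses on 1 chip, up in 3, and 0.78 in the 5 pairs on different chips, up in 5. With chip as a random block the F test adjusted p was 0.905. That fit also gave up the pairing of doses within run and time, so chip and pairing are not separated there. With Fe, 1 Gy was above 0.5 Gy at 4 h in 3 of 3 runs by 0.33 ± 0.04 and showed no steady sign at the other times (F test adjusted p = 1). With Si the difference at 4 h was 0.24 ± 0.50.

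KITLG differed between γ-ray doses by 0.35 at 4 h and by -0.41 at 24 h, and the F test missed the threshold (unadjusted p = 0.0368, adjusted p = 0.347). In the γ-ray run of 09C the ratio at 4 h was 1.08 after 3 Gy and 0.52 after 1 Gy, and at 24 h -0.33 and 0.56. After Fe the 4 h ratio of KITLG was 0.42 ± 0.52 at 0.5 Gy and 0.41 ± 0.12 at 1 Gy, and after Si 0.38 ± 0.05 and 0.27 ± 0.38. THBS1, SERPINB5 and IGFBP3 had adjusted p-values between 0.501 and 1 in the F tests over the 4 times for the 3 types. At single times the lowest of these 3 genes was IGFBP3 with Si at 12 h, at an adjusted p of 0.149.

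Other genes of the same biology were read from lists. Of 10 other secreted factors linked to p53, 6 were tested, each with 1 probe. HBEGF, a ligand of the EGF receptor, fell by 1.37 from 1 to 4 h in mock cells in 9 of 9 runs (adjusted p = 0.000608), and LIF, a cytokine of the interleukin-6 family, fell by 0.66 (adjusted p = 0.00134), so that both went down over the hours in which IGFBP3 and THBS1 went up. DKK1, a secreted WNT inhibitor, fell by 0.81 from 12 to 24 h (adjusted p = 0.0217), when GDF15 went up. The LIF probe was dim, with a raw median of 92.9. Of all probes, 6.51% passed from 1 to 4 h and 13% from 12 to 24 h, in either direction. No factor of this list passed after radiation, where at most 0.0945% of all probes passed at any time. The list's median log2 ratio at 4 h was 0.07, against -0.00059 for all probes tested.

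Of the receptors and binding partners, 17 probes of 12 genes were tested. The receptor KIT had a raw median of 55.1, GFRAL 58.5 and the 3 probes of RET 61.8 to 63.7, all near the median of an array and below the filter. CD47, a receptor of THBS1, was brighter, at 492.2, and IGF2R, which binds IGF2, at 7892. From 12 to 24 h in mock cells 2 of the 17 probes passed, both upwards, where 13% of all probes passed in either direction. LRP1, an endocytic receptor that binds THBS1, rose by 0.35 (adjusted p = 0.0156) on a dim probe with a raw median of 74.7. TMEM219, described as a receptor of IGFBP3, rose by 0.32 (adjusted p = 0.0275), with a raw median of 902.1. IGF2, a growth factor bound by IGFBP3, was the 1 probe of the list that passed after radiation. It was higher than mock at 12 h by 0.33 ± 0.28 in 8 of 9 runs (limma adjusted p = 0.0119). The IGF2 probe was dim, with a raw median of 111.2, and 0.0945% of all probes passed at 12 h. The 23 calls at 12 h, IGF2 among them, went to 0 with chip as a random block, with a trended variance prior and without the run as a block. The fits with chip and without the run also gave up the pairing of irradiated with mock samples.

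Of the relatives of the members (other thrombospondins, IGF-binding proteins and clade B serpins), 13 probes were tested and 7 rose from 12 to 24 h in mock cells, with none falling. Of all 24350 probes 1442 rose and 1714 fell over that step. The list's median was 0.32 there, against 0.0012 over all probes tested. IGFBP2 rose by 0.63 (adjusted p = 0.00102), THBS3 by 0.32, THBS4 by 0.40 and IGFBP6 by 0.32. Some of the 7 probes were dim, with raw medians of 111.4 for THBS3, 82.4 for THBS4 and 65.1 for the dimmest. IGFBP3 itself fell over these hours, and THBS1 fell over the hours before. THBS2 showed the opposite course to THBS1, with a fall of 0.39 from 1 to 4 h (adjusted p = 0.00605) and a rise of 0.36 from 4 to 12 h (adjusted p = 0.012), on a dim probe with a raw median of 145.9. Of 16 probes of p53 targets that stay in the cell, 7 rose and none fell from 12 to 24 h in mock cells (median 0.42), where 13% of all probes passed in either direction. They included GADD45A, a stress sensor, at 0.63 (adjusted p = 0.00575), CCNG1, cyclin G1, at 0.44 (0.00703), PHLDA3, an inhibitor of AKT, at 0.48 (0.00975) and RRM2B, a subunit of ribonucleotide reductase, at 0.55 (0.0231). After radiation CDKN1A and TP53INP1 passed at 4 h. The 13 calls over all probes there went to 0 with chip as a random block and without the run as a block. Neither fit paired irradiated with mock samples within run and time, so an effect of chip alone was not tested. No probe of any list passed between doses or between radiation types. Of all probes, 0.678% passed the F test between Si doses, 0.821% between γ-ray doses, and 0% between Fe doses or radiation types.

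The genes whose log2 ratio to mock was most like that of each member over the 71 irradiated samples were ADM2, ATF3 and NINJ1 for GDF15 (r = 0.67, 0.63 and 0.61) and GASK1B, EI24 and RRM2B for KITLG (0.73, 0.69 and 0.68). They were CCND2, SNRK and LAMB3 for THBS1 (0.76, 0.73 and 0.73), ADGRF4, TOP2B and CDH3 for SERPINB5 (0.78, 0.76 and 0.75) and KLK7, SERPING1 and MMP9 for IGFBP3 (0.73, 0.72 and 0.70). Among the members themselves the highest value was 0.58 between THBS1 and SERPINB5, and KITLG and GDF15 correlated at 0.21. By run-centred level over the 45 unirradiated samples, the nearest genes were C12orf76, TSC22D3 and CEBPG for GDF15 (0.93, 0.92 and 0.91), PPM1D, BTG3 and GASK1B for KITLG (0.90, 0.85 and 0.84), WDR37, CCND1 and PHLPP2 for THBS1 (0.87, 0.86 and 0.86), GJB2, MALL and BMP6 for SERPINB5 (0.80, 0.75 and 0.73) and MB21D2, JPT1 and CCDC138 for IGFBP3 (0.86, 0.85 and 0.85). GASK1B was near KITLG by both measures. Both doses of a run and time share 1 mock culture, so these points are not independent.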

How the data were processed

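HBEC3KT RNA was hybridised to Illumina HumanWG-6 V2 BeadChips. The deposited raw table held BeadStudio bead intensity per probe and array, not normalised. The authors also deposited a table of log2 values, background-subtracted and quantile-normalised by them with the MBCB algorithm, which was used as an alternative. No genome build is named for the arrays in the sources used here. Raw signals were background-corrected with normexp (offset 50), quantile-normalised and log2-transformed, and repeat arrays of 1 run, dose and time were averaged. Of 48701 probes, the 24350 with a mean log2 signal over arrays above the median of 6.23 were tested with limma 3.58.1 in R 4.3.3, with Benjamini-Hochberg adjustment over all of them and a threshold of 0.05. Symbols came from the platform annotation, which gives 24303 probes 1 symbol each.

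Mock and reference samples were fitted with time and run as terms (32 residual degrees of freedom). A response was a run's irradiated level averaged over its doses, less its mock at that time (36 values), and doses were compared through 35 within-run differences. Irradiated and mock samples of 1 run and time deviated from their group means together, with a median correlation of 0.677 over 71 pairs (lowest 0.0581), and the study's own methods divide by the mock. Runs of the same campaign may share cultures and handling. The labels call campaigns biological replicates, and all runs are of 1 cell line. In the mock fit, p-values rest on the spread left after time and run. In the type and dose tests they rest on the spread between runs of the same type and time, pooled over types and times. Those tests had 24 and 23 residual degrees of freedom and no run term, so the 4 times of 1 run counted as separate values. The number of arrays limits the precision. Chips were tried as a random block. For ratios and doses that fit used single samples with group and run terms. The fit without the run as a block used single samples with group terms alone. Neither paired samples within run and time, so the effects of chip and of lost pairing were not separated. All member probes are reported. From each other list at most 4 probes that passed are named per comparison, smallest p first, and the genes most like a member are the 3 with the highest Pearson correlation. The members and lists were chosen with earlier results of these data known. The scripts were tested on simulated data. Promoter sequences came from RefSeq (GRCh38.p14), where all 5 genes matched, and figures were drawn with matplotlib.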

Additional observations from a re-analysis of the deposited data

Results flagged for a closer look

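In groups of 9 runs, 54 sets of values of the 6 member probes were examined for 1 run far from the rest, by the gap to its nearest neighbour as a share of the range (Dixon's test at its 95% critical value). Chance alone flags about 1 in 20 such sets, and 5 were found. The GDF15 ratio to mock at 24 h was -0.85 in the Fe run of 08A, against 0.01 for the next lowest and 0.49 for the highest run. The unirradiated level of GDF15 at 12 h was 9.77 in the γ-ray run of 09C, against 8.33 for the next highest. The THBS1 reference level at 0 h was 9.60 in the Fe run of 09C, against 10.85 for the next lowest. The SERPINB5 ratio at 24 h was -0.47 in the Fe run of 08C, against -0.05 for the next lowest. The IGFBP3 ratio at 1 h was 1.21 in the Fe run of 08A, against 0.06 for the next highest. Of these 5 values, 4 came from Fe runs and 2 from the Fe run of 08A. Their causes were not tested.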

How the results depend on the processing

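The 3 member probes that changed in mock cells were 2 when each array was only scaled to a common median, 2 without the run as a replicate block, 3 with campaigns averaged and 3 to 4 when 1 run was left out, the added probe being SERPINB5 from 12 to 24 h (adjusted p = 0.00923 without the Fe run of 09C). No member probe passed between radiation types, over all doses or at 1 Gy, under any alternative run. Between doses the count was 0 under every alternative except that leaving out 1 run gave 0 to 1, which was GDF15 without the γ-ray run of 09A; the adjusted p of that GDF15 test ranged from 0.0293 to 1. At single times, GDF15 at 24 h with γ-ray passed without the γ-ray run of 09A (0.0308) and THBS1 at 24 h with Fe passed without the Fe run of 09C (0.038). The THBS1 fall from 4 to 12 h kept its direction and passed throughout. The GDF15 rise from 12 to 24 h had an adjusted p of 0.0517 with median scaling, where the whole table had 136 calls for that step against 3156. The IGFBP3 fall from 12 to 24 h missed at 0.0977 with median scaling and at 0.141 without the block, and its rise from 1 to 4 h at 0.126 without the block. The THBS1 rise from 1 to 4 h missed under 6 of the alternatives that keep all runs, at adjusted p-values up to 0.363. With the authors' values the KITLG ratio was 0.76 at 4 h and -0.44 at 1 h, larger than with an offset of 50. With chip as a random block and without the block, the pairing of ratios and doses within run and time was also dropped. Over all probes the calls at 4 h after radiation were 13, but 0 in both of these fits. Those between γ-ray doses were 200, but 82 with the authors' values, 119 with a trended variance prior, 20 without the block and 0 with median scaling, and those between Si doses were 165, but 21, 222, 0 and 0. Leaving out 1 run moved the calls between doses from 0 to 880 for Fe (without Fe of 09C), from 165 to 0 for Si (without Si of 09B or 09C) and from 200 to 3 for γ-ray (without γ-ray of 08C), and those between types at 1 Gy from 0 to 93 (without Fe of 09C). The cause of these changes was not tested.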
